A study of Sus scrofa with 6 samples.

Results

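The genes described are the early growth response (EGR) transcription factors, the NR4A orphan nuclear receptors, the NAB corepressors that bind EGR proteins, and the antiproliferative BTG proteins. The rule named 10 genes of these families, EGR1, EGR2, EGR3, NR4A1, NR4A2, NR4A3, NAB1, NAB2, BTG1 and BTG2, out of 25149 genes listed. Of these, 8 were matched to the count files, while no identifier that the name tables pair with NR4A1 or BTG1 is among the listed genes, and those 2 genes were not analysed here. EGR1, EGR3, NR4A3 and BTG2 were chosen by their fold change and p-value between these same libraries, on which the study lists them as changed, and NR4A2 is on that list too, so their differences between conditions are given as a description, with no p-value. EGR2, NAB1 and NAB2 were included as relatives of those genes.

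The cells were neonatal pig Sertoli cells (NPSC), the somatic cells that surround and nourish germ cells in the testis, isolated from wild-type newborn Duroc-Landrace pigs and kept as monolayers in DMEM with 10% fetal bovine serum. Baseline NPSC (3 plates) received DMEM in exchange for part of their medium. Complement NPSC (3 plates) received an equal volume of pooled human serum with its complement preserved, for 90 min. Bulk RNA was sequenced from each plate. No library with complement-inactivated serum is among the 6, so complement and the other constituents of human serum cannot be told apart. The cells came from male pigs of several litters, and neither the labels nor the methods say which litter gave which plate, so p-values measure the spread between plates only.

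Immediate early genes are transcribed within minutes of a stimulus without any need for new protein. Growth factors and serum act on them through kinase cascades, the transcription factor SRF with its ELK partners, and CREB. EGR1, EGR2 and EGR3 are zinc finger proteins that bind GC-rich promoter elements, and NAB1 and NAB2 bind to EGR proteins and restrain them, with NAB2 itself an EGR target. The NR4A receptors act without a known natural ligand, and in steroid-producing testis cells they are known for driving steroidogenic genes. BTG2 slows the cell cycle and recruits the CCR4-NOT complex, which shortens poly(A) tails of mRNA.

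Counts on genes ranged from 6796183 to 8371923 per library in baseline NPSC and from 3641518 to 6403606 in complement NPSC. CPM are counts per 1000000 of the TMM-scaled library size. The count density on olfactory receptor genes was taken as background, on the assumption, not tested here, that these cells do not use them. In counts per kilobase per 1000000 of the library total, without TMM scaling, the density was 1.18 to 2.15 in baseline NPSC. In complement NPSC it was 4.01 and 4.43 in replicates 1 and 2 and 1.51 in replicate 3. Of 17 listed Sertoli cell markers, 14 were in the files and all 14 were counted, among them SOX9, WT1 and GATA4. Their summed level lay at 6686 to 10318 CPM in baseline NPSC and 4967 to 6257 CPM in complement NPSC, so the sum was lower in every complement library. Most of that sum was CLU (4694 ± 1214 CPM at baseline and 2634 ± 390 CPM with complement, SD, n = 3) and VIM, and 5 of the 14, KRT18, DHH, GATA1, DMRT1 and AMHR2, had an LFC above 0. Leydig cell markers were present as well, at a sum of 1293 to 1493 CPM in baseline NPSC and 943 to 1054 CPM in complement NPSC, with CYP11A1 at 0 in all libraries. Macrophage markers (7 in the files) summed to 86.5 to 146 CPM in baseline NPSC and 67.4 to 101 CPM in complement NPSC. Of these markers, 3, LYZ (LFC −2.28), TYROBP (LFC −1.06) and CSF1R (LFC −0.75), were lower at an unadjusted p under 0.05 in edgeR. Among the others, C1QA (LFC 0.28) and CD68 (LFC 0.11) were above 0, and CD14 (LFC −0.33) and PTPRC (LFC −0.15) below 0. None of the tested markers of Sertoli, Leydig, peritubular myoid, endothelial, germ, T or erythroid cells or of macrophages was a DEG in edgeR. The median LFC was −0.16 for peritubular myoid, −0.06 for endothelial and −0.24 for germ cell markers. It was 0.53 for T cell and 0.58 for erythroid cell markers, with 3 tested in each list and all above 0. Of the 14 Sertoli cell markers, 7 had an unadjusted p under 0.05, 5 of them lower and 2 higher (DHH and KRT18) in complement NPSC, where 15.2% of all tested genes had such a p. The part that these shifts in marker levels play in the results was not tested. In bulk RNA, fewer cells of a type and less RNA per cell cannot be told apart.

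EGR1 (ENSSSCG00000014336) lies on chromosome 2 from 146156065 to 146160020 on the plus strand of the unnamed build that the files use, with 2 exons of 3245 bp in all. It was counted at 209, 173 and 134 CPM in baseline NPSC and at 452, 479 and 1163 CPM in complement NPSC. Every complement library was above every baseline library, and complement replicate 3 was set well apart from the other two. The log2 fold change (LFC, complement against baseline, from edgeR) was 2.02 (SE 0.36, n = 3 and 3), rank 30 from the highest of 17512 tested genes. Without complement replicate 3 the LFC was 1.41, its lowest value when any 1 library was left out, and the rank was 1224. Differentially expressed genes (DEG) were those with an adjusted p under 0.05 and an LFC beyond 1 in size, and EGR1 no longer met this definition without baseline replicate 2 (LFC 2.01) or baseline replicate 3 (LFC 1.86), nor with DESeq2's size factors (2.01), with at least 10 counts required in all libraries (2.04) or without the 20 most counted genes (2.02).

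EGR3 (ENSSSCG00000009630), which shares the zinc finger domain of EGR1, lies on chromosome 14 from 7426276 to 7428160 on the minus strand, with 2 exons of only 1050 bp. Its values were 10.0, 15.8 and 8.70 CPM in baseline NPSC and 48.5, 30.3 and 63.9 CPM in complement NPSC. The groups did not overlap, and the lowest complement library, replicate 2, was still above the highest baseline library. EGR3 had 66 to 368 counts per library, with a counting error of 5.21% to 12.3%. The LFC was 2.06 (SE 0.29), which stayed between 1.75 and 2.33 with any 1 library left out.

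EGR2 (ENSSSCG00000010224), known as a regulator of myelinating Schwann cells and of lymphocytes, lies on chromosome 14 from 71516963 to 71521113 on the minus strand, with 2 exons of 2809 bp. It was counted at 25.4, 18.4 and 14.6 CPM in baseline NPSC and at 30.7, 36.7 and 50.5 CPM in complement NPSC. The groups again did not overlap, but the nearest libraries were baseline replicate 1 and complement replicate 1, which differed by a small margin. The LFC of 1.02 (SE 0.25) had an adjusted p of 0.256 in edgeR's quasi-likelihood test, so EGR2 was not a DEG. In the DESeq2 Wald test the LFC was 0.97 with an adjusted p of 0.128. Without baseline replicate 1 the LFC was 1.25 and EGR2 was a DEG (adjusted p = 0.0217, edgeR), whereas without complement replicate 3 the LFC was 0.76 (adjusted p = 0.0622, edgeR). EGR2 was also a DEG with a block for the replicate number (LFC 1.02, adjusted p = 2.58e-06, edgeR), which is not known to pair the plates.

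**Figure D1:**
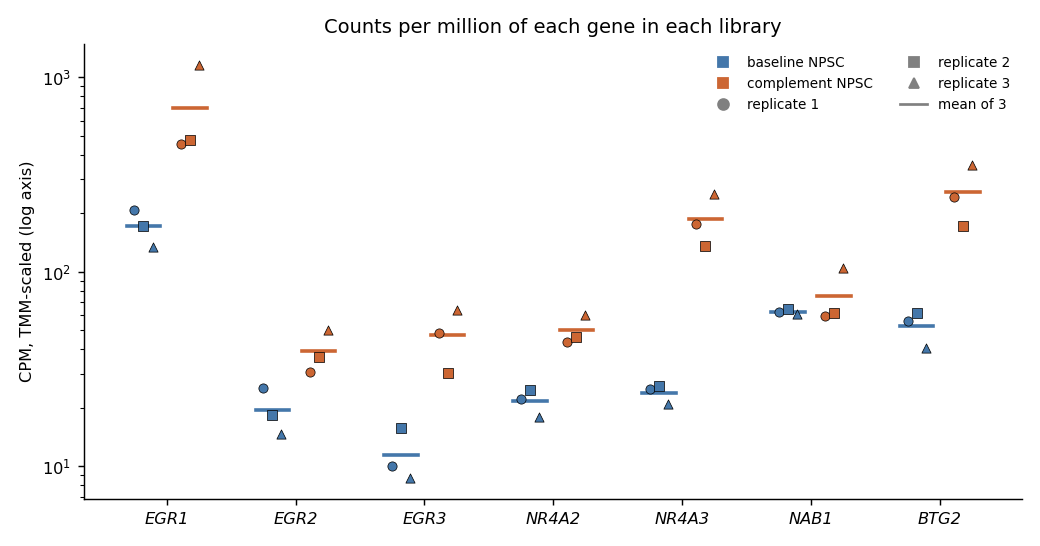
CPM (log axis, TMM-scaled) of the 7 tested genes in each library, with marker shape for the replicate number and a bar for the mean of 3. For 6 genes the complement NPSC points all lie above the baseline NPSC points, while those of NAB1 overlap, and replicate 3 (triangle) is the highest complement point of every gene.

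The balance among the EGR genes can be read within a library, where scaling cancels. Per kilobase of exon, EGR1 was 7.14, 8.13 and 7.92 times EGR2 in baseline NPSC and 12.7, 11.3 and 19.9 times EGR2 in complement NPSC. The ratio of EGR1 to EGR2 was thus higher in each complement library than in any baseline library. EGR1 over EGR3 gave 6.77, 3.55 and 4.98 in baseline libraries against 3.01, 5.12 and 5.88 in complement libraries, and these ranges overlapped. EGR1 held 71.2% to 77.6% of the summed EGR level per kilobase in baseline NPSC and 70.9% to 82.0% in complement NPSC, so its share of the family spanned a similar range in both conditions.

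NR4A3 (ENSSSCG00000005385), also called NOR-1, is a nuclear receptor that binds DNA as a monomer. The gene lies on chromosome 1 from 269817145 to 269852707 on the plus strand, with 8 exons of 5352 bp. It was counted at 25.1, 25.9 and 21.0 CPM in baseline NPSC and at 176, 136 and 251 CPM in complement NPSC. The baseline libraries lay close together and all complement libraries lay far above them. The LFC of 2.97 (SE 0.25) was the highest of the families and rank 4 of all tested genes, and the LFC stayed between 2.68 and 3.14 with any 1 library left out. Its rank was 51 without complement replicate 3. For a gene of this exon length, the olfactory receptor density predicts a background of 46.0 to 78.3 counts in baseline libraries, in which 159 to 173 were counted. With that background subtracted the LFC was 3.71, the highest value under any alternative.

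NR4A2 (ENSSSCG00000015871), or NURR1, a receptor best known for the development of dopamine neurons, lies on chromosome 15 from 70671007 to 70679616 on the minus strand, with 8 exons of 3829 bp. Its values were 22.3, 24.8 and 17.9 CPM in baseline NPSC and 43.6, 46.3 and 60.3 CPM in complement NPSC. These groups did not overlap, and the complement libraries lay closer together than those of NR4A3. The LFC was 1.21 (SE 0.21), rank 563, and the rank was 2719 without complement replicate 3. NR4A2 was no longer a DEG without baseline replicate 2 (LFC 1.30), baseline replicate 3 (1.08), complement replicate 1 (1.31) or complement replicate 2 (1.25). Expected background was 24.1% of all NR4A2 counts, the largest share among the tested genes of these families, and its subtraction gave an LFC of 1.55.

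The order of the NR4A genes differed between the conditions. Per kilobase, NR4A3 was 0.804, 0.747 and 0.836 times NR4A2 in baseline NPSC and 2.89, 2.11 and 2.98 times NR4A2 in complement NPSC. Thus NR4A2 had the higher level in all 3 baseline libraries and NR4A3 in all 3 complement libraries. The study lists both genes as changed in this contrast, so this order is a description.

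BTG2 (ENSSSCG00000028322) lies on chromosome 9 from 70327445 to 70331400 on the plus strand, with 2 exons of 2690 bp. It was counted at 56.1, 61.1 and 40.8 CPM in baseline NPSC and at 243, 172 and 354 CPM in complement NPSC. Complement replicate 2 was the lowest of its group for BTG2, as it was for EGR3 and NR4A3, and was still well above all baseline libraries. The LFC was 2.28 (SE 0.28), rank 14 of all tested genes. With any 1 library left out the LFC was 1.95 to 2.49, and the rank was 361 without complement replicate 3.

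The NAB corepressors gave another picture. NAB1 (ENSSSCG00000029547) lies on chromosome 15 from 106592223 to 106603711 on the plus strand, with 4 exons of 4498 bp. It was counted at 62.3, 64.4 and 60.6 CPM in baseline NPSC and at 59.6, 61.8 and 105 CPM in complement NPSC. Complement replicates 1 and 2 were within or just under the baseline range and only complement replicate 3 was above it. The LFC was 0.28 (SE 0.22, adjusted p = 0.504, edgeR), and without complement replicate 3 it was −0.07 (adjusted p = 0.754, edgeR). With CPM taken by the library total, NAB1 was 54.9 to 63.3 in baseline NPSC and 68.2 to 94.6 in complement NPSC, so whether its groups overlap rests on the scaling.

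NAB2 (ENSSSCG00000000411) lies on chromosome 5 from 23970633 to 23979637 on the minus strand, with 7 exons of 5440 bp. It had 0, 0 and 1 counts in baseline NPSC and 0, 2 and 0 counts in complement NPSC, which is at or under the floor of 3 counts (0.395 to 0.716 CPM) in all libraries, and it did not pass the expression filter. Of its exon length, 2456 bp is shared with ENSSSCG00000026524 on the other strand, a gene with 3 to 10 counts per library, and reads there cannot be assigned without a stated strand setting. The other 2984 bp are covered by no other listed gene, and 25.7 to 48.2 counts would be expected on them from background alone. Counts this low therefore give no level for NAB2.

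In the edgeR fit over 17512 genes, 0.103% of genes were DEG in either direction and 0.0914% were DEG with higher and 0.0114% with lower values in complement NPSC. Of the 10 genes named, 5 were DEG, all higher: NR4A3, BTG2, EGR3, EGR1 and NR4A2. The rule drew on this same contrast, so nothing is read from that count. Of the 5, NR4A2 had the lowest LFC (1.21). Of the tested genes outside the definition, EGR2 (LFC 1.02) came next, which passed the bound on LFC and missed that on adjusted p. The number of DEG in the families was 3 without baseline replicate 2 and also 3 without baseline replicate 3 (EGR3, NR4A3 and BTG2 in both fits). Complement values lay entirely above baseline values for EGR1, EGR2, EGR3, NR4A2, NR4A3 and BTG2, a pattern that 8.95% of all tested genes showed, while 8.14% showed the reverse and none of the 7 tested genes of the families did. All of those named but EGR2 were chosen by or listed from this same contrast, so nothing is read from this pattern either.

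**Figure D2:**
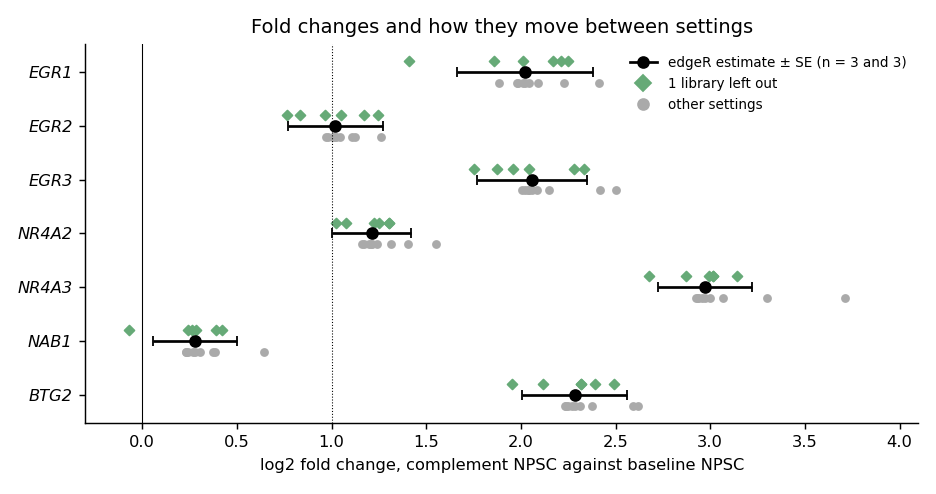
LFC of complement NPSC against baseline NPSC for each gene (black, edgeR estimate ± SE), with the values when 1 library was left out (green) and under the other settings (grey), and a dotted line at an LFC of 1. NR4A3 stays at 2.68 or above throughout and EGR1 moves down to 1.41 without complement replicate 3, while NAB1 crosses 0 in that fit.

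One library of each condition stood at the same end for all 7 tested genes. Complement replicate 3 had the highest CPM of the complement libraries and baseline replicate 3 the lowest CPM of the baseline libraries for all of them, an order that 5.69% of all tested genes showed. Relative to the complement mean on the log2 scale, complement replicate 3 was higher by 0.88 for EGR1, 0.53 for BTG2, 0.53 for NAB1, 0.49 for EGR3, 0.46 for NR4A3, 0.39 for EGR2 and 0.28 for NR4A2. This library also had the most counts and the lowest olfactory receptor density of the complement group, and the part of either in the order was not tested. Complement replicate 2 lay below the complement mean for all 7, while complement replicate 1 and baseline replicates 1 and 2 had no common side. Relative to the baseline mean, baseline replicate 1 was at 0.41 for EGR2 and −0.15 for EGR3, and baseline replicate 2 at −0.04 for EGR2 and 0.49 for EGR3. The standard deviation of log2 CPM among complement libraries was 0.76 for EGR1 and 0.25 for NR4A2, against a median of 0.33 over all tested genes.

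Over the 6 libraries, Pearson's r of log2 CPM was 0.992 between NR4A3 and BTG2, 0.988 between EGR3 and BTG2 and 0.984 between NR4A2 and BTG2. NAB1 had the lowest r with the others, between 0.526 (NR4A3) and 0.735 (EGR1). These values describe 6 libraries that differ in condition and also in depth and background, and carry no p. Outside the families, the profile of EGR1 was most like those of SPRY2, a feedback inhibitor of growth factor signaling (r = 0.995), IER3 (0.993), HAS2, a hyaluronan synthase (0.992), TSPAN2 (0.985) and the MAP kinase phosphatase DUSP1 (0.982). EGR3 was most like the chemokine CXCL2 (0.996), followed by CCDC138 (0.983), RAD51B (0.982), the clock gene PER1 (0.980) and NRIP3 (0.979). For NR4A3 they were MLKL, an effector of necroptosis (0.996), JUNB (0.994), the phosphatase DUSP10 (0.989), MSC (0.987) and FGD5 (0.983). BTG2 had the same leading genes as NR4A3, MLKL (0.994), JUNB (0.992) and DUSP10 (0.990), with PER1 (0.986) and HAS1 (0.984) next.

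Levels can be compared between genes only per kilobase of exon, here as CPM per kilobase (mean ± SD, n = 3). Such levels, and the ratios between genes, rest on the listed exon lengths, such as 1050 bp for EGR3 and 3245 bp for EGR1. Whether the listed exons are complete was not tested. In baseline NPSC the order was EGR1 (53.0 ± 11.6), BTG2 (19.6 ± 3.93), NAB1 (13.9 ± 0.421), EGR3 (10.9 ± 3.595), EGR2 (6.93 ± 1.94), NR4A2 (5.66 ± 0.906) and NR4A3 (4.48 ± 0.492). EGR1, BTG2 and NAB1 were separated in all libraries, whereas each neighbouring pair from NAB1 downwards had overlapping ranges. In complement NPSC the order was EGR1 (215 ± 124), BTG2 (95.3 ± 34.2), EGR3 (45.3 ± 16.0), NR4A3 (35.1 ± 10.9), NAB1 (16.8 ± 5.72), EGR2 (14.0 ± 3.62) and NR4A2 (13.1 ± 2.34). There, EGR3 and NR4A3 overlapped, as did NAB1 with EGR2 and EGR2 with NR4A2. NR4A3 moved from the 24.6th to the 87.9th percentile of all tested genes by level per kilobase, EGR3 from the 53.9th to the 91.6th, and EGR1 from the 91.6th to the 99.0th. The orders were the same after the expected background was subtracted.

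**Figure D3:**
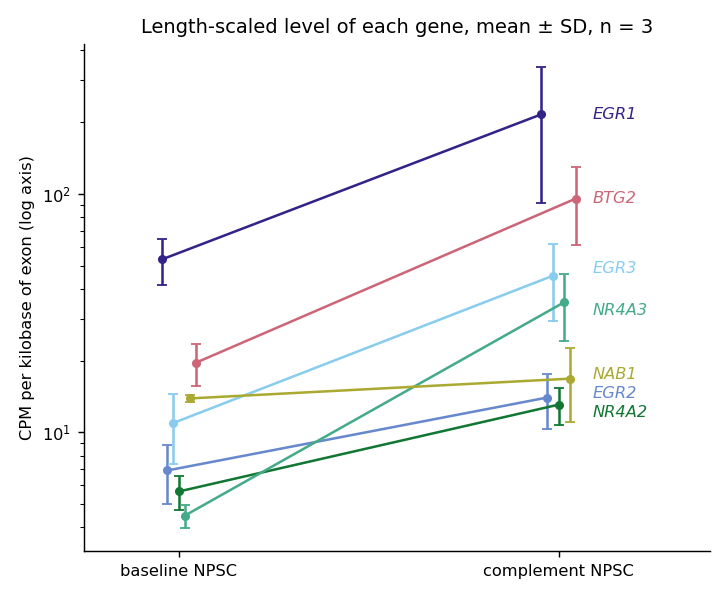
Length-scaled level (CPM per kilobase of exon, log axis, mean ± SD, n = 3) of each gene in baseline NPSC and complement NPSC. NR4A3 is the lowest of the 7 genes in baseline NPSC and the fourth in complement NPSC, above NAB1, EGR2 and NR4A2, while the means of NAB1 are 13.9 and 16.8.

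Genes that carry the signal to immediate early promoters were examined as a list of 25, of which 18 were tested. None was a DEG in edgeR (0 of 18, with 1 at an unadjusted p under 0.05, against 0.103% and 15.2% of all tested genes) or in DESeq2 (0), and their median LFC was −0.01, against 0.02 over all tested genes. Among those with the highest levels, the CREB coactivator CRTC2 had 91.8 ± 4.80 CPM in baseline NPSC and 92.1 ± 12.9 CPM in complement NPSC (SD, n = 3, LFC 0.01). The SRF partner ELK3 had an LFC of 0.14 (SE 0.25, adjusted p = 0.760, edgeR). The sign of the LFC depended on the fit for both genes.

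Among 30 genes chosen as EGR targets, 18 were tested and 1 was a DEG, against 0.103% of all tested genes. An unadjusted p under 0.05 in edgeR was found for 3 of the 18, against 15.2% of all tested genes. The DEG was VEGFA, the endothelial growth factor. VEGFA had 46.0 ± 7.52 CPM at baseline and 110 ± 10.7 CPM with complement (SD, n = 3), at an LFC of 1.25 (SE 0.20, adjusted p = 0.0206, edgeR). It was lost without baseline replicate 2 (adjusted p = 0.191, edgeR) or baseline replicate 3 (adjusted p = 0.195, edgeR), and it is on the list of changed genes that the study drew from these libraries. F3, tissue factor, had 437 ± 77.9 CPM in baseline NPSC and 910 ± 261 CPM in complement NPSC (SD, n = 3), an LFC of 1.06 and an adjusted p of 0.261 in edgeR and 0.0224 in DESeq2. F3 was also within the DEG definition with the background subtracted or as a covariate. The other abundant targets, the matrix genes THBS1 (LFC 0.09) and FN1 (LFC 0.14), had an SE of 0.68 and 0.46, and their sign turned without complement replicate 3 (LFC −0.36 and −0.61). The median LFC of the tested targets was 0.04, and in 3 of 18 the complement libraries were all above the baseline libraries, as in 8.95% of all tested genes.

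Of 28 NR4A partners and target genes, 13 were tested and none was a DEG in edgeR (0 of 13, with 3 at an unadjusted p under 0.05, against 15.2% of all tested genes) or in DESeq2 (0). Without baseline replicate 1, and likewise without complement replicate 3, 2 were DEG in edgeR. In those fits 298 of 18200 and 1063 of 18443 tested genes were DEG. The median LFC of the 13 genes in the main fit was 0.32, against 0.02 over all tested genes. The Leydig cell hormone INSL3 had 798 ± 85.2 CPM at baseline and 555 ± 25.7 CPM with complement (SD, n = 3), at an LFC of −0.52 (adjusted p = 0.342, edgeR). The steroid hydroxylase CYP17A1 had 231 ± 24.0 and 162 ± 12.7 CPM (SD, n = 3), with an LFC of −0.51 (adjusted p = 0.301, edgeR). Both genes lay lower in all complement libraries, as 8.14% of all tested genes did. They belong to the Leydig cell markers too and make up most of their sum, so the lower sum is not a separate observation. SPP1, osteopontin, had an LFC of 0.66 (SE 0.41, adjusted p = 0.413, edgeR) that was −0.57 with olfactory receptor density as a covariate and 1.05 (adjusted p = 0.0411, edgeR) without complement replicate 3.

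The BTG relatives and the CCR4-NOT deadenylase (21 genes, 16 tested) held no DEG in edgeR (0, with 1 at an unadjusted p under 0.05, against 15.2% of all tested genes) or in DESeq2 (0). The median LFC was −0.22, against 0.02 over all tested genes, and 2 of 16 had an LFC above 0. PABPC1, the poly(A)-binding protein (LFC −0.20), PRMT1, an arginine methyltransferase that binds BTG proteins (LFC −0.46), and CNOT1, the scaffold of the complex (LFC −0.23), had the highest levels, with an adjusted p of 0.714, 0.358 and 0.640 in edgeR. PABPC1 and CNOT1 had an LFC above 0 (0.23 and 0.16) with olfactory receptor density as a covariate.

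Other serum-induced immediate early genes were listed from general knowledge (50 genes, 28 tested). Of the 28, 3 were DEG, against 0.103% of all tested genes, and all were higher: PTGS2, JUNB and GEM. All 3 are among the changed genes the study lists from these libraries. The median LFC of the list was 0.50 against 0.02 over all tested genes, 12 of 28 had complement libraries entirely above baseline libraries (8.95% of all tested genes), and 13 had an unadjusted p under 0.05 (15.2% of all tested genes). Of those 12, 7 are on the study's list from these libraries (PTGS2, JUNB, GEM, IER3, DUSP1, NFKBIA and PER1), so the count is not independent evidence. PTGS2, cyclooxygenase 2, had an LFC of 3.53 (SE 0.37, adjusted p = 0.000677, edgeR). JUNB, an AP-1 subunit, had 191 ± 4.79 CPM at baseline and 515 ± 126 CPM with complement (SD, n = 3), at an LFC of 1.43 (SE 0.25, adjusted p = 0.0455, edgeR). GEM, a small GTPase, had an LFC of 1.30 (SE 0.23, adjusted p = 0.0493, edgeR). JUNB was lost without baseline replicate 2 or 3 or complement replicate 1 (adjusted p = 0.387, 0.300 and 0.0758, edgeR), and GEM without baseline replicate 2 or complement replicate 1 or 2 (adjusted p = 0.354, 0.0559 and 0.122, edgeR). With any 1 library left out, the LFC was 1.19 to 1.56 for JUNB and 1.03 to 1.43 for GEM. Scaling by DESeq2's size factors ended both calls, at an LFC of 1.42 for JUNB (adjusted p = 0.0597, edgeR) and 1.28 for GEM (adjusted p = 0.0589, edgeR). Leaving out the 20 most counted genes ended the call of JUNB at an LFC of 1.43 (adjusted p = 0.0719, edgeR). The most abundant of the list were the matricellular genes CCN1 (LFC 0.55, adjusted p = 0.428, edgeR) and CCN2 (LFC 0.26, adjusted p = 0.694, edgeR, and −0.01 without complement replicate 3) and the survival factor IER3, at 247 ± 47.1 CPM in baseline NPSC and 698 ± 263 CPM in complement NPSC (SD, n = 3). IER3 had an adjusted p of 0.0891 in edgeR and 0.000129 in DESeq2, and among the edgeR fits with 1 library left out it was a DEG without baseline replicate 1 (adjusted p = 0.0291) or complement replicate 3 (adjusted p = 0.0382). It was also a DEG with upper-quartile normalization (adjusted p = 0.0487, edgeR), with the background subtracted (adjusted p = 0.0226, edgeR) and with olfactory receptor density as a covariate (adjusted p = 0.0114, edgeR). IER3 and F3 are on the study's list from these libraries as well. FOS, picked out after its values were seen, had 152 ± 69.4 CPM in baseline NPSC and 152 ± 29.2 CPM in complement NPSC (SD, n = 3), an LFC of 0.00 (SE 0.28, adjusted p = 1.000, edgeR) whose sign varied between fits.

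**Figure D4:**
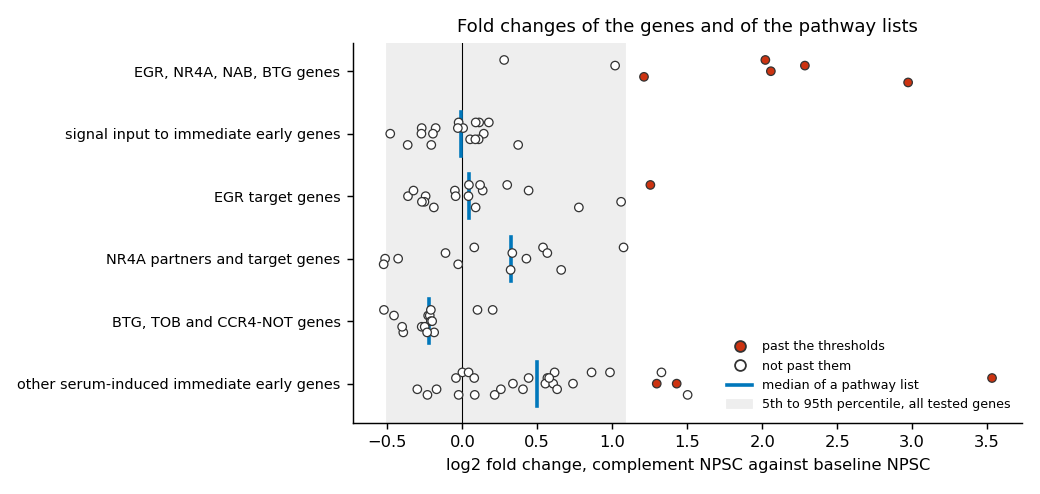
LFC of each tested gene in the EGR, NR4A, NAB and BTG families and in 5 pathway lists, filled where the gene was a DEG in edgeR, with the median of each pathway list (blue) and the range from the 5th to the 95th percentile of all tested genes (grey, −0.50 to 1.08). The signal input, EGR target and CCR4-NOT lists centre near or below 0, the NR4A partner and target list at 0.32, and the other immediate early genes centre at 0.50 with 3 DEG.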

How the data were processed

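RNA from 3 baseline NPSC and 3 complement NPSC plates was sequenced by a service, and what the authors deposited are whole-number counts for each gene, not normalized, beside its exon coordinates and exon length. The submitters' processing notes name Trimmomatic 0.36, STAR 2.5.2b and featureCounts of Subread 1.5.2. The genome build and strand setting are not given in the sources used here. Groups and replicate numbers were taken from the sample titles. Names came from the tables at hand, which paired 11805 identifiers with a symbol, and from the rule for BTG2. Genes (17512) were kept with filterByExpr in edgeR 4.0.16 (R 4.3.3), scaled by TMM and tested by quasi-likelihood. Adjusted p-values are Benjamini-Hochberg values over that whole table. The standard error is the LFC divided by the square root of F. The DESeq2 1.42.0 Wald test, which the study's methods name, was an alternative. The log2 CPM used a prior count of 2. Expected background is exon length times the count density on 48 olfactory receptor genes (45945 bp). The genes, the lists (written from general knowledge) and the alternatives were chosen with earlier results of these data known. Named from each pathway list were its DEG and its 3 tested genes with the highest level per kilobase. A gene that this names in the signal input list is not reported here. The fits were tested on simulated data. Counting error is the square root of the count. Plots used matplotlib 3.10.9.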

Additional observations from a re-analysis of the deposited data

How the results depend on the processing

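The number of DEG over all genes was 18 and was 53 with the DESeq2 Wald test, 31 with no filter beyond 1 count, 31 with the expected background subtracted, 58 with olfactory receptor density as a covariate, and 9 (without baseline replicate 2) to 1063 (without complement replicate 3) with 1 library left out, 298 without baseline replicate 1 among them. The number in the EGR, NR4A, NAB and BTG families was 5 and stayed between 4 and 6, apart from 3 without baseline replicate 2 or 3, and ranged from 3 to 6 with 1 library left out. In the 5 pathway lists together it was 4, and it was 2 with DESeq2's size factors, 7 with the DESeq2 Wald test, 9 after background subtraction, 12 with the covariate and 1 to 7 with 1 library left out. DESeq2's size factors, a minimum of 10 counts in all libraries, and removal of the 20 most counted genes each took EGR1 out of the DEG. Upper-quartile normalization moved the median LFC of all genes from 0.02 to 0.13, and the DEG were then 21 higher and 0 lower, against 16 and 2.

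Samples with the same number could share a litter, which neither the labels nor the methods say. The deviations of baseline and complement libraries from their group means correlated at 0.456, 0.0302 and 0.482 for numbers 1, 2 and 3. Baseline replicates 1 and 3 each correlated best with the complement replicate of their own number. Baseline replicate 2 was near 0 with complement replicates 2 and 3 (0.0302 and 0.0665). Deviations from a mean of 3 libraries constrain one another, so these values cannot decide whether the numbers pair the plates. The main fit took no pairing. A replicate block gave 728 DEG, 6 in the families (EGR2 added, LFC 1.02, adjusted p = 2.58e-06, edgeR) and 8 in the pathway lists (among them F3, adjusted p = 0.00172, IER3, adjusted p = 4.51e-07, edgeR, and 1 NR4A partner or target).

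Signs turned as follows, and the cause was not tested. Without 1 library, LFC ran from −0.069 to 0.42 for NAB1, −0.15 to 0.080 for CRTC2, −0.24 to 0.36 for ELK3, −0.36 to 0.26 for THBS1, −0.61 to 0.40 for FN1, −0.01 (−0.0084) to 0.49 for CCN2 and −0.23 to 0.42 for FOS. With the covariate LFC was −0.57 for SPP1, 0.23 for PABPC1 and 0.16 for CNOT1, and after background subtraction 0.052 for PABPC1. CRTC2 and FOS were at −0.0089 and −0.014 with DESeq2's size factors, −0.050 and −0.055 in DESeq2, and −0.036 and −0.041 with no filter. With the block CRTC2 was at −0.0019 and FN1 at −0.054, and without the 20 most counted genes FOS was at −0.00015. Counting error reached 12.3% for EGR3 in baseline replicate 3, where it had 66 counts.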
